A study of Mus musculus with 24 samples.

Results

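The miR-192, miR-194 and miR-215 group was followed across exosomes, hepatocytes and liver of mice exposed to acetaminophen, a painkiller toxic to hepatocytes in overdose, with or without granulocyte colony-stimulating factor (G-CSF), a cytokine that mobilises granulocytes. The members were taken by name: 4 mature miRNAs (mmu-miR-192-5p, mmu-miR-192-3p, mmu-miR-194-5p and mmu-miR-215-5p) of 1915 in the mature table, and 4 hairpins (mmu-mir-192, mmu-mir-194-1, mmu-mir-194-2 and mmu-mir-215) of 1186 in the hairpin table. The values are estimated counts of reads per miRNA in 12 columns, 1 for each of 3 treatments in 4 materials: serum exosomes, exosomes from the medium of primary hepatocytes, the cultured primary hepatocytes themselves, and liver. Serum and liver came from untreated mice, mice given 500 mg/kg acetaminophen, and mice given 500 mg/kg acetaminophen with 100 µg/kg G-CSF. The hepatocyte cultures and their exosomes were untreated, exposed to 20 mM acetaminophen, or exposed to 20 mM acetaminophen with 1 µg/ml G-CSF. The labels state no strain, sex or age of the mice, no time after dosing, and not how many animals or cultures each sample stands for. Each column pools a PGM and a Proton library of the condition, so 24 samples gave 12 columns and no condition has a replicate within a material. A ratio of 2 columns therefore compares those libraries and not the conditions, and its interval covers counting error only.

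miRNAs are cut from hairpin precursors, and bases 2 to 8 of the mature strand, the seed, direct them to messenger RNAs. miR-192 and miR-194 are abundant in liver, kidney and intestine, and in mice miR-192 is known, beside miR-122, as a circulating marker of acetaminophen injury. In human cells, miR-192, miR-194 and miR-215 are induced by the tumour suppressor p53 and slow the cell cycle. Both mouse clusters pair a miR-194 hairpin with a hairpin of the miR-192 type.

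The mature sequences are shown because their likeness decides what the counts can tell apart. They are from RefSeq (GRCm38.p6), written 5′ to 3′ with the seed in capitals.
miR-192-5p: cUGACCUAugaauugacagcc
miR-215-5p: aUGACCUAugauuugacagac
miR-194-5p: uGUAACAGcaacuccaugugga
miR-192-3p: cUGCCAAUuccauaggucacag
The first pair, miR-192-5p and miR-215-5p, carried the same seed, which no other of the 1679 mature mouse sequences searched carried. The seeds of miR-194-5p and of miR-192-3p were each found in no other mature sequence. Counted from 1 at the 5′ end, with the base of miR-192-5p given first and that of miR-215-5p last, the pair differed by C1A, A12U and C20A, and the other 18 of 21 bases were equal.

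The hairpins show which arms each locus gives. The mature arms are in capitals, and all 4 lie on the plus strand of GRCm38.p6.
Mir194-2: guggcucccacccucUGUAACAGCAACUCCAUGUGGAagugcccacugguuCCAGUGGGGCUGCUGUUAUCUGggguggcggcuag
Mir192: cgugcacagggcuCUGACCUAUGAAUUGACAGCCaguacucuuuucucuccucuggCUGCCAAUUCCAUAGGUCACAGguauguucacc
Mir194-1: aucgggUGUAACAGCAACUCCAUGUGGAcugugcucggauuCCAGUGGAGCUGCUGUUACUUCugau
Mir215: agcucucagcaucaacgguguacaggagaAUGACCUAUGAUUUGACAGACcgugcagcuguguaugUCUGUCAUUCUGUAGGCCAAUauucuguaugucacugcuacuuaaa
Mir194-2 (chr19:6264643-6264728) and Mir192 (chr19:6264844-6264932) were separated by 115 bases, and no other annotated gene overlapped either hairpin. Mir194-1 (chr1:185313319-185313385) and Mir215 (chr1:185313581-185313692) were separated by 195 bases and lay in introns of Iars2, a mitochondrial isoleucyl-tRNA synthetase gene on the opposite strand. The antisense gene 2010103J01Rik covered Mir194-1 with an intron and Mir215 with an exon. Both miR-194 hairpins hold the same mature 5p strand of 22 bases, so a mature miR-194-5p read cannot be placed at either locus. The longest run of bases shared by the Mir192 and Mir215 hairpins was 10.

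The 6 columns of hepatocytes and liver held 4450 to 49330 mature and 111316 to 1307523 hairpin counts, whereas the 6 exosome columns held 47 to 6515 mature counts. There were 25.1 to 33.7 hairpin counts per mature count in 5 of those 6 cell and tissue columns and 5.65 in the acetaminophen liver column. miR-122-5p, the leading marker of hepatocytes, was present in all 6, at 9.96% to 17.3% of mature counts in hepatocytes and 12.7% to 40.1% in liver. The other hepatocyte markers looked for, miR-122-3p and miR-802-5p, were at 0 in the hepatocyte column with G-CSF. The 4 erythroid markers took 0.195% of the control liver column, 6.36% of the acetaminophen column and 1.11% of that with G-CSF, and summed to at most 1 count in each hepatocyte column. The 5 mesenchymal markers took 1.81% to 2.34% in liver and 0.00686% to 0.166% in hepatocytes. The 2 endothelial markers took 2.03% to 2.89% in liver. In hepatocytes they took 0.333% of the untreated column, 1.76% of the acetaminophen column and 1.24% of that exposed to both agents. The 6 epithelial markers took 1.22%, 0.150% and 0.0449% of those hepatocyte columns and 0.396% to 1.73% in liver. Most of that sum was miR-31-5p, at 1.22%, 0.150% and 0.0449% in hepatocytes and 0.284% to 1.69% in liver. Each other epithelial marker had at most 0.5 counts in a hepatocyte column and at most 8 in a liver column. The sum therefore describes miR-31-5p and not the rest of that list. What these lists contribute to the members' values was not tested. For the serum columns with acetaminophen, the titles assign G-CSF the opposite way from the treatment label used here.

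miR-192-5p was among the most abundant miRNAs of hepatocytes. It had 652 counts in the control column, 323 with acetaminophen and 149 with G-CSF added, which were 2.44% (95% Wilson interval 2.26 to 2.63), 6.06% (5.45 to 6.73) and 3.35% (2.86 to 3.92) of mature counts, at ranks 6, 3 and 5. In liver it had 587, 154 and 440.2 counts, or 1.19% (1.10 to 1.29), 0.782% (0.668 to 0.915) and 1.01% (0.917 to 1.10), at ranks 21, 26 and 35. All 3 hepatocyte shares lay above all 3 liver shares, and the intervals of the materials, which cover counting error only, did not overlap. How many other miRNAs separated the materials in this way is not given here. The edgeR test across columns, given below, did not call miR-192-5p.

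miR-215-5p, the partner of miR-192-5p by seed, followed miR-192-5p column by column. Its counts were 586, 282 and 127 in hepatocytes (2.19%, 5.29% and 2.85%) and 506, 150 and 390.2 in liver (1.03%, 0.762% and 0.893%), each in the order control, acetaminophen, acetaminophen with G-CSF. The ratio of miR-215-5p to miR-192-5p ran from 0.852 to 0.974 over these 6 columns, and that of their hairpins from 0.916 to 0.969. In control serum exosomes both mature rows were listed at 0.5. The sources used here do not give the rule for reads that match both, so the 2 rows are read as a single measurement and not as support for each other. Summed, they made the same calls as miR-192-5p alone in every comparison within hepatocytes and within liver.

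miR-194-5p, the product of both miR-194 hairpins, was distributed differently. In hepatocytes it had 462, 166 and 24 counts, or 1.73% (1.58 to 1.89), 3.11% (2.68 to 3.62) and 0.539% (0.363 to 0.801), at ranks 10, 7 and 28. In liver it had 1219.5, 209.5 and 466.2 counts, or 2.47% (2.34 to 2.61), 1.06% (0.932 to 1.22) and 1.07% (0.974 to 1.17), at ranks 5, 19 and 32. The shares of the 2 materials overlapped: the lowest and the highest of the 6 were both from hepatocytes. In control liver miR-194-5p was the most abundant member, and in each hepatocyte column it was below both miR-192-5p and miR-215-5p.

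**Figure D1:**
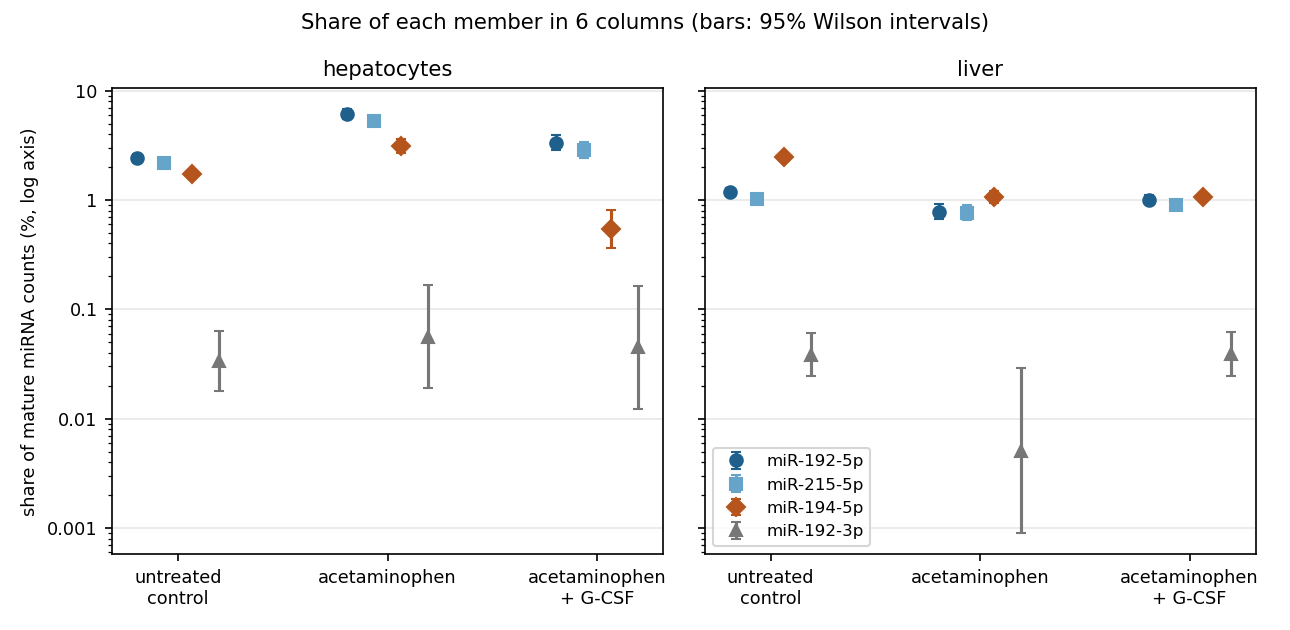
Share of mature counts (%, log axis) of the 4 mature members in the 3 hepatocyte columns (left) and the 3 liver columns (right), points with 95% Wilson intervals. miR-192-5p and miR-215-5p move together and lie higher in hepatocytes, from 2.19% to 6.06%, than in liver, from 0.762% to 1.19%, while miR-194-5p spans 0.539% to 3.11% in hepatocytes.

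miR-192-3p, the opposite arm of the Mir192 hairpin, was rare. It had 9, 3 and 2 counts in hepatocytes and 19, 1 and 17 in liver, 0.00508% to 0.0563% of a column. The ratio of miR-192-5p to miR-192-3p was 72.4 (95% interval 37.9 to 159), 108 (36.5 to 525) and 74.5 (20.3 to 621) in hepatocytes and 30.9 (19.6 to 51.7), 154 (27.2 to 6122) and 25.9 (16.0 to 44.8) in liver. The mean log2 ratio was 0.76 higher in hepatocytes, with a two-sided exact permutation p of 0.4 over 3 against 3 columns. The 5p arm led in all 6 columns, and a difference between the materials was not detectable at these counts of the 3p arm. Of the other arms, miR-194-2-3p had 3, 0 and 0 counts in hepatocytes and 19, 0 and 10 in liver, and miR-194-1-3p and miR-215-3p were at 0 in all 6.

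The hairpin table held deeper counts of the same libraries. In hepatocytes mir-192 had 31067, 12777 and 5426 counts (3.70%, 7.11% and 3.89% of hairpin counts) and mir-215 had 29995, 12387 and 5173. In liver mir-192 had 25233, 1601 and 16774 (1.93%, 1.44% and 1.53%) and mir-215 had 23112, 1507 and 15553. mir-194-1 had 7424, 2272 and 371.2 counts in hepatocytes (0.885%, 1.26% and 0.266%) and 19843, 683.7 and 5533 in liver (1.52%, 0.614% and 0.505%). The counts of mir-194-2 were close to those of mir-194-1, with a ratio of mir-194-1 to mir-194-2 of 0.917 to 1.00, so the 5p strand and the miR-194 hairpin rows did not separate the clusters on chromosomes 1 and 19. The 3p arms differ between the loci: those of chromosome 19, miR-192-3p and miR-194-2-3p, had reads in hepatocytes and liver, whereas those of chromosome 1, miR-194-1-3p and miR-215-3p, were at 0 in all 6 columns, which allows each a share of up to 0.00608% in control liver and 0.0112% in control hepatocytes. These counts describe the 3p arms alone. Summed over the 4 mature members, the group made up 6.39%, 14.5% and 6.79% of the hepatocyte columns and 4.73%, 2.61% and 3.01% of the liver columns.

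The ratio of miR-194-5p to miR-192-5p within a column needs no scaling between columns. It was 0.709 (95% interval 0.628 to 0.800) in control hepatocytes, 0.514 (0.424 to 0.622) after acetaminophen and 0.161 (0.10 to 0.249) after both agents. In liver it was 2.08 (1.88 to 2.30), 1.36 (1.10 to 1.69) and 1.06 (0.928 to 1.21). All 3 liver ratios lay above all 3 hepatocyte ratios, and the mean log2 ratio was -1.36 in hepatocytes and 0.53 in liver, a difference of -1.89. The two-sided exact permutation test gave p = 0.1, the smallest that 3 against 3 columns allow, so this test could not pass 0.05. With the columns paired by treatment, liver was higher in 3 of 3 pairs and the two-sided exact sign-flip test gave p = 0.25, the smallest that 3 pairs allow. The difference was -1.87 with miR-192-5p and miR-215-5p summed and -1.81 for the hairpins, each again with an exact p of 0.1.

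At matched treatments the liver ratio was 2.93 times that of hepatocytes in control (2.51 to 3.43), 2.65 times after acetaminophen (1.99 to 3.54) and 6.57 times after both agents (4.15 to 10.8). Treatments fell in the same order in both materials, highest in control and lowest with acetaminophen and G-CSF. In hepatocytes the ratio was 1.38-fold lower with acetaminophen than in control (1.10 to 1.73) and 3.19-fold lower with G-CSF added than with acetaminophen alone (1.97 to 5.34). In liver it was 1.52-fold lower with acetaminophen than in control (1.20 to 1.93) and 1.29-fold lower with G-CSF added than with acetaminophen alone (1.00 to 1.66). The last interval ended at equality and included it with the summed denominator (1.23-fold, 0.992 to 1.52). The hairpins, miR-194 pair over miR-192 and miR-215, gave the same order, at 0.245, 0.181 and 0.0701 in hepatocytes and 0.838, 0.443 and 0.358 in liver.

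**Figure D2:**
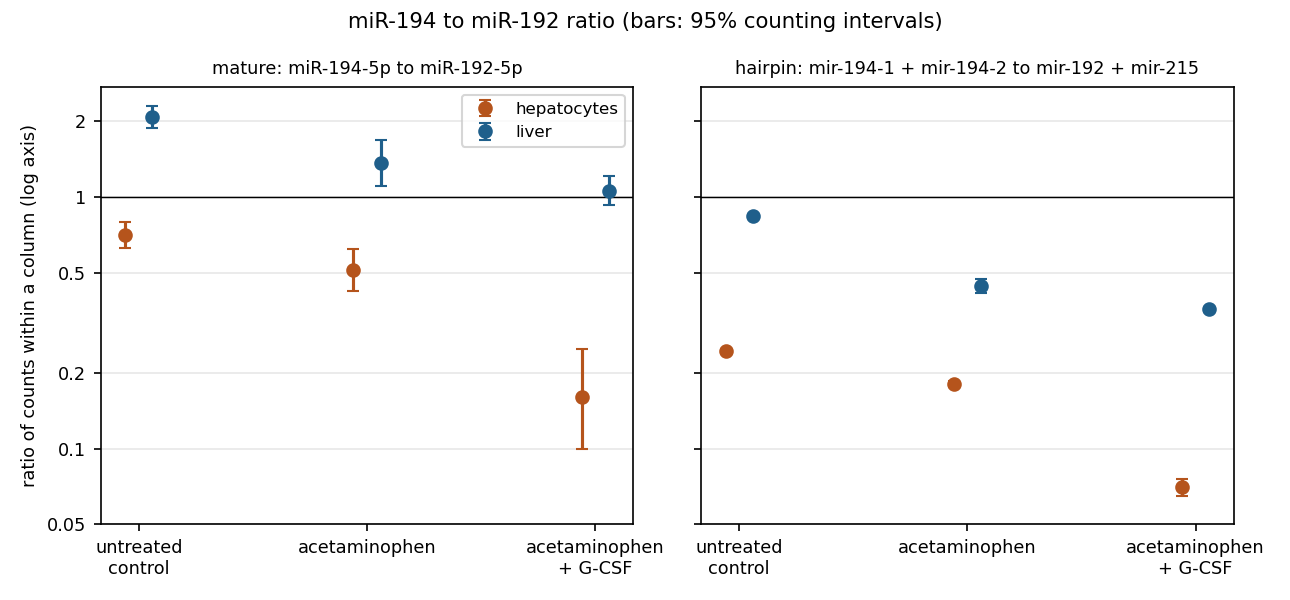
Ratio of miR-194-5p to miR-192-5p counts (left) and of the summed miR-194 hairpins to the summed mir-192 and mir-215 hairpins (right) within each column, on a log axis with 95% counting intervals. Liver lies above hepatocytes at each treatment (mature 2.08, 1.36 and 1.06 against 0.709, 0.514 and 0.161), and control is the highest column of each material.

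Within hepatocytes, the 2 strands with the shared seed made up a larger part of the acetaminophen column than of the control. A miRNA was called between 2 columns when at least 1 had 10 counts, the ratio after trimmed mean of M values (TMM) scaling was at least 2-fold and its exact 95% interval excluded equality. miR-192-5p was 2.61-fold higher with acetaminophen (2.27 to 2.98) and miR-215-5p 2.53-fold higher (2.19 to 2.92), both called. miR-194-5p was 1.89-fold higher (1.57 to 2.26) and not called, although DESeq2 size factors (2.45-fold) and TMM factors computed without miR-30c-5p and miR-122-5p (2.16-fold) took it past 2-fold. For miR-192-3p, with 3 counts against 9, the ratio was 1.75 (0.305 to 7.03). The 4 abundant miRNAs miR-122-5p, miR-21a-5p, miR-21b and miR-30c-5p took 52.9% of the control column and 34.9% of the acetaminophen column. Of the remaining counts, miR-192-5p took 5.18% and 9.30%, miR-215-5p 4.65% and 8.12%, and miR-194-5p 3.67% and 4.78%. On these shares all 3 were higher with acetaminophen, each by less than 2-fold. Calls were common between these columns: 26.0% of the 100 miRNAs measured were called higher and 27.0% lower, so 2 called rows that may share reads stand against a large background. The hairpin ratios lay in the same direction but nearer 1, at 1.57-fold for mir-192 (1.54 to 1.60), 1.57-fold for mir-215 (1.54 to 1.61), 1.17-fold for mir-194-1 (1.11 to 1.22) and 1.15-fold for mir-194-2 (1.10 to 1.20), none called against 30.1% of 302 hairpins called higher.

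With G-CSF added to acetaminophen, miR-194-5p was the only mature member called in hepatocytes. Its 24 counts against 166 gave a 5.41-fold lower level (3.51 to 8.68), which was called, as 17.0% of the 47 miRNAs measured were called lower. miR-192-5p was 1.70-fold lower (1.39 to 2.07) and miR-215-5p 1.74-fold lower (1.40 to 2.16), neither called. The hairpins mir-194-1 (4.34-fold lower, 3.89 to 4.86) and mir-194-2 (4.33-fold lower, 3.88 to 4.84) were called too, where 14.3% of 230 hairpins were called lower. The mir-192 hairpin was 1.67-fold lower (1.62 to 1.72) and the mir-215 hairpin 1.70-fold lower (1.64 to 1.75).
Set against the control, hepatocytes with both agents had 2.86-fold less miR-194-5p (1.90 to 4.51), called where 29.0% of 100 miRNAs were called lower, and 1.54-fold more miR-192-5p (1.28 to 1.84), not called. With DESeq2 size factors these became 1.98-fold lower, not called, and 2.22-fold higher, called. The comparisons share columns, so their values are not independent of each other.

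In liver, the members had lower values with acetaminophen than in control, and those of the miR-194 type were called. miR-194-5p was 2.08-fold lower than in control (1.79 to 2.42) and called, where 27.5% of the 160 miRNAs measured were called lower and 23.1% higher. With DESeq2 size factors it was 1.85-fold lower and not called. miR-192-5p was 1.36-fold lower (1.14 to 1.64) and miR-215-5p 1.21-fold lower (1.00 to 1.46), neither called. miR-192-3p, at 1 count against 19, had a ratio of 0.147 (0.00354 to 0.926), which met the rule on a single read and did not meet it with DESeq2 size factors. Among hairpins, mir-194-1 was 2.77-fold lower (2.57 to 2.99) and mir-194-2 2.84-fold lower (2.63 to 3.07), both called where 19.2% of 432 hairpins were, and mir-192 was 1.504-fold lower (1.43 to 1.58). The erythroid markers, 4 of 4 detected in all 3 liver columns, were highest in this acetaminophen column. Scaled by column totals that left out those markers, in place of TMM, miR-194-5p was 2.18-fold lower and miR-192-5p 1.43-fold lower. The lower hairpin-to-mature ratio of this column held for the members too, at 10.4 for mir-192 against 43.0 in control and 38.1 with G-CSF. The hepatocyte markers were higher in this column, while the members had lower values: miR-122-5p took 23.6% of control liver, 40.1% with acetaminophen and 12.7% with G-CSF added. With acetaminophen it was 1.90-fold higher than in control (1.84 to 1.95), under the threshold of 2-fold, and miR-122-3p (11.7-fold, 4.67 to 34.7) and miR-802-5p (5.83-fold, 2.82 to 12.7) were called higher. The part of either marker list in the members' values was not tested. In bulk samples, fewer cells of a type and less RNA per cell cannot be told apart.

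No member was called between the liver columns with acetaminophen alone and with G-CSF added, where 30.2% of 162 miRNAs were. miR-192-5p was at 1.04-fold (0.860 to 1.25), miR-215-5p at 0.943-fold (0.779 to 1.15) and miR-194-5p at 0.807-fold (0.682 to 0.951). Scaling by column totals gave 1.29-fold for miR-192-5p, 1.17-fold for miR-215-5p and 1.00-fold for miR-194-5p, which turned the direction of miR-215-5p and left miR-194-5p without one (0.848 to 1.18). miR-192-3p rested on 17 counts against 1 and its ratio of 6.16 (0.965 to 258) was not called, although by column totals it was. Against control, the liver column with both agents had 2.58-fold less miR-194-5p (2.32 to 2.88), called where 12.9% of 171 miRNAs were called lower, and 1.32-fold less miR-192-5p (1.16 to 1.49), not called. The hairpins mir-194-1 and mir-194-2 were 3.23-fold (3.13 to 3.32) and 3.08-fold (2.99 to 3.17) lower there, both called, where 21.8% of 458 hairpins were called lower.

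Another scaling shifts every log2 fold of a comparison alike, so the direction of a small fold depends on it and the ratio of miR-194-5p to miR-192-5p does not. DESeq2 size factors moved the log2 folds by 0.37 for acetaminophen against control in hepatocytes, by 0.53 for both agents against control there, and by 0.17 and -0.20 in liver for acetaminophen against control and for G-CSF added. Column totals moved them by -0.16, 0.31 and 0.16 in the 3 liver comparisons. With DESeq2 size factors the calls in hepatocytes, 26 higher and 27 lower with acetaminophen, became 30 higher and 20 lower, and those for both agents against control went from 23 higher and 29 lower to 27 and 18. In liver, column totals turned 37 higher and 44 lower with acetaminophen into 27 and 50, 28 higher and 21 lower with G-CSF added into 44 and 15 (23 and 30 with DESeq2 size factors), and 27 higher and 22 lower for both agents against control into 29 and 15.

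**Figure D3:**
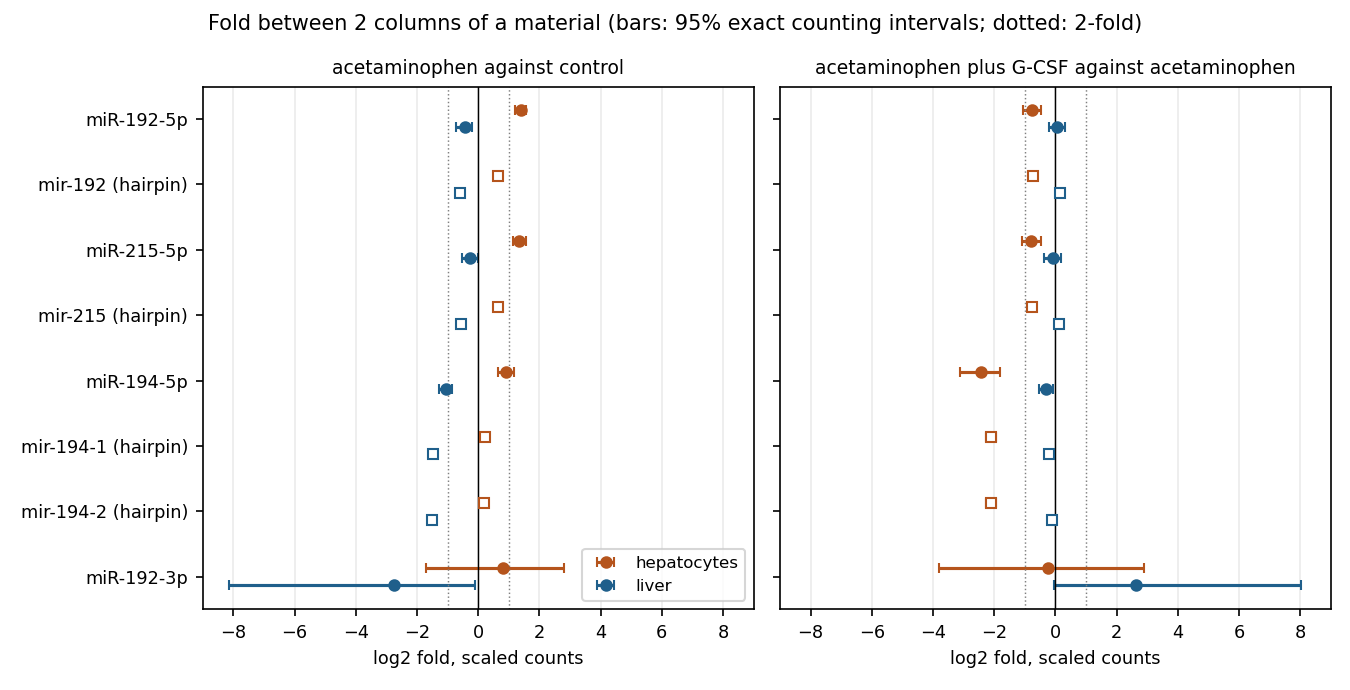
log2 folds between columns of the same material for acetaminophen against control (left) and for G-CSF added against acetaminophen alone (right), in hepatocytes and liver, with 95% exact counting intervals; filled circles are mature rows, open squares hairpins, and dotted lines mark 2-fold. With acetaminophen, miR-192-5p lies at 1.38 in hepatocytes and -0.45 in liver, and with G-CSF added miR-194-5p lies at -2.44 in hepatocytes and -0.31 in liver.

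Across all 6 columns, hepatocytes and liver were compared with treatments as the replicates, by edgeR's quasi-likelihood test on 154 miRNAs with Benjamini-Hochberg adjustment. miR-192-5p had a log2 fold of 2.56 (SE 1.10) toward hepatocytes with an adjusted p of 0.102, and miR-215-5p one of 2.51 (SE 1.06) with an adjusted p of 0.0994. miR-194-5p had 0.65 (SE 0.99, adjusted p = 0.697) and miR-192-3p 1.39 (SE 1.17, adjusted p = 0.438). No member passed 0.05 in a fit that called 9.09% of the miRNAs, 3.25% as higher in hepatocytes and 5.84% as lower. For miR-192-5p the log2 fold stayed positive in all 13 alternatives, from 1.90 to 3.29, and 4 of them called it. These were DESeq2's test (adjusted p = 0.00353), the fit without the treatment block (0.0470), and the fits without the control hepatocyte column (0.00420) or without the control liver column (0.000581). The adjusted p ran from 0.000581 to 0.695 over the 13. Library totals in place of TMM moved the median of all 154 from -0.70 to -1.33, turned 5 higher and 9 lower calls into 2 and 22, and put miR-192-5p at 1.90 and miR-194-5p at -0.01. DESeq2's test called 15 higher and 17 lower. The hairpins gave log2 folds of 2.33 for mir-192 (SE 1.10, adjusted p = 0.181), 2.39 for mir-215, 0.57 for mir-194-1 and 0.51 for mir-194-2.

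Neither comparison list had a called member on the side of hepatocytes. Of 9 hepatocyte-enriched miRNAs 7 were tested, none was called, 3 had a positive log2 fold and the median was -0.04, where the median over all 154 was -0.70. miR-378a-3p (2.63, SE 1.19, adjusted p = 0.129) and miR-101a-3p (1.98, SE 0.98, adjusted p = 0.165) were the nearest in size to miR-192-5p, and miR-122-5p was at -0.12 (SE 1.4996, adjusted p = 0.961). Of 8 p53-responsive miRNAs 6 were tested, with a median of -1.22, and 2 were called lower in hepatocytes. These were miR-143-3p (-4.90, SE 1.27, adjusted p = 0.00266) and miR-145a-5p (-5.05, SE 1.16, adjusted p = 0.000755), which are typical of smooth muscle and mesenchymal cells and also stand among the mesenchymal markers. miR-34a-5p, a direct target of p53, was at -0.95 (SE 1.01, adjusted p = 0.552).

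**Figure D4:**
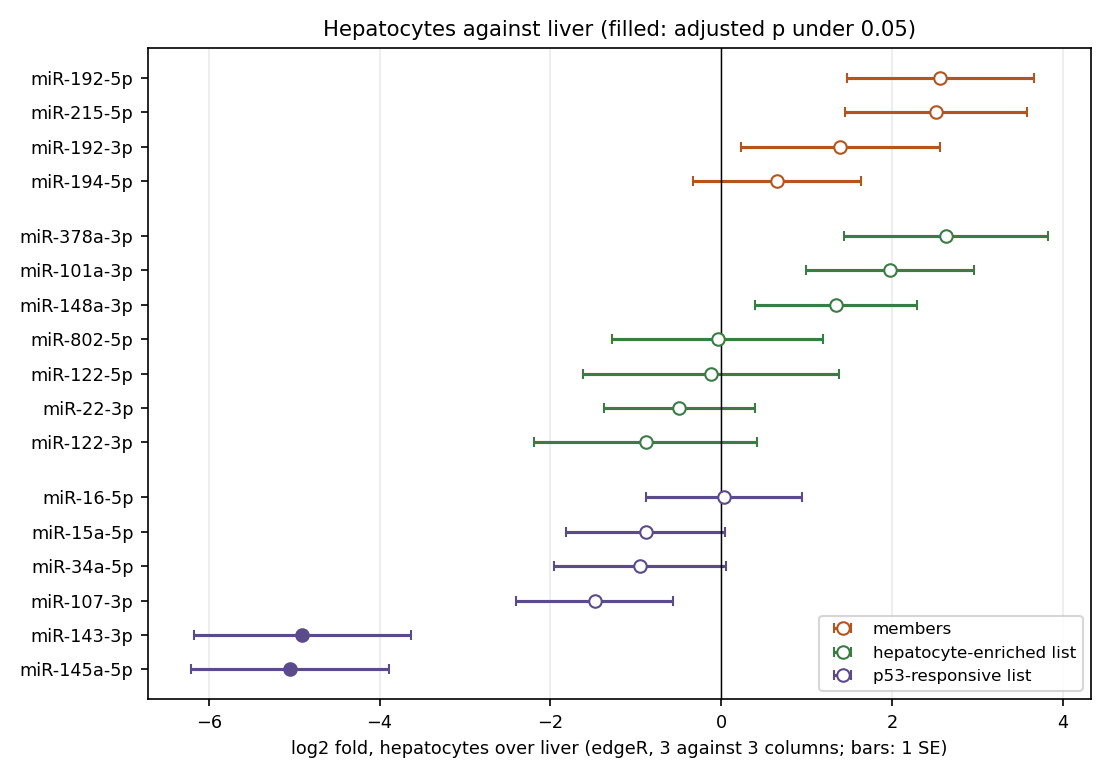
log2 fold of hepatocytes over liver from edgeR (3 against 3 columns, bars 1 SE) for the 4 mature members and the tested miRNAs of both lists; filled points have an adjusted p under 0.05. miR-192-5p (2.56) and miR-215-5p (2.51) lie to the right without passing the threshold, and the filled points are miR-143-3p and miR-145a-5p.

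With materials as the replicates, no treatment comparison called a member by edgeR. For acetaminophen against control the log2 fold was 0.53 for miR-192-5p (SE 1.28, adjusted p = 0.943), 0.60 for miR-215-5p (SE 1.24, adjusted p = 0.927), 0.14 for miR-194-5p (SE 1.19, adjusted p = 0.966) and -0.67 for miR-192-3p (SE 1.45, adjusted p = 0.929). The hairpin table turned the sign of the 5p members, at -0.0548 for mir-192, -0.0324 for mir-215, -0.62 for mir-194-1 and -0.64 for mir-194-2, with adjusted p from 0.875 to 0.991. The mature fit called 0.649% of 154 miRNAs. For G-CSF added against acetaminophen alone, miR-194-5p had -1.68 (SE 1.22, adjusted p = 0.974) and miR-192-5p -0.61 (SE 1.24, adjusted p = 0.974). That comparison called 0 of 154 miRNAs (0.0%) by edgeR, with 4 at an unadjusted p under 0.05, and 0 by DESeq2. For both agents against control, miR-194-5p had -1.54 (SE 1.17, adjusted p = 0.987) and miR-192-5p -0.08 (SE 1.25, adjusted p = 0.987). It called 0 (0.0%) by edgeR as well, with 4 at an unadjusted p under 0.05, and 2 by DESeq2.

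Beside the members, the hepatocyte-enriched list had a median log2 fold of 1.16 with acetaminophen in hepatocytes (5 of 9 measured, 3 called higher and 1 lower, with a median of -0.47 over all 100 measured) and of 1.08 in liver (7 of 9, 4 higher and 1 lower, with -0.25 over all 160). In hepatocytes miR-378a-3p was 6.42-fold higher (5.05 to 8.20), miR-22-3p 3.01-fold higher (1.88 to 4.72) and miR-101a-3p 2.57-fold lower (1.86 to 3.66). In liver miR-378a-3p was 4.46-fold lower (3.30 to 6.24) and miR-101a-3p 2.12-fold higher (1.72 to 2.61), the reverse of hepatocytes.
The p53-responsive list had a median of -1.01 in hepatocytes (4 of 8 measured, 1 called higher and 2 lower, where 26.0% and 27.0% of all 100 were) and -0.66 in liver (6 of 8, 1 higher and 3 lower, where 23.1% and 27.5% of all 160 were). miR-34a-5p was 3.99-fold lower with acetaminophen in hepatocytes (1.66 to 12.5) and 3.17-fold lower in liver (2.14 to 4.86). miR-107-3p was 8.99-fold lower (3.79 to 27.9) and 6.02-fold lower (4.69 to 7.86). miR-15a-5p was called 2.63-fold higher in hepatocytes (1.10 to 5.89) on 10 counts against 20, and was at 1.09-fold in liver (0.817 to 1.44). miR-16-5p was at 0.984-fold in hepatocytes (0.756 to 1.27) and 0.919-fold in liver (0.798 to 1.05), not called. In liver miR-143-3p was called 5.46-fold higher (4.17 to 7.20) and miR-145a-5p 2.29-fold lower (1.91 to 2.75). The list thus held calls in both directions in each material.

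The miRNAs most like miR-192-5p over the 6 columns, by the root mean square difference of centred log2 values scaled to depth, were miR-489-3p (0.63), miR-320-3p (0.68), miR-130c (0.71), miR-130a-3p (0.73) and miR-30b-5p (0.76), among 91 candidates with a median of 2.05. Those most like miR-194-5p were miR-16-5p (0.52), miR-195a-5p (0.62), miR-185-5p (0.62), miR-27a-3p (0.65) and miR-27b-3p (0.65), with a median of 1.496. miR-192-5p and miR-194-5p differed from each other by 1.17, so at least 5 other rows were closer to each than its cluster partner. Related rows among these, such as miR-27a-3p and miR-27b-3p, may share reads and are not separate measurements. The spread about its own mean was 0.934 for miR-194-5p, less than 1.17, and 1.37 for miR-192-5p. miR-192-5p and miR-215-5p differed by 0.06.

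Few or no mature counts of the group were found in exosomes, where most columns were too shallow to show absence. In serum exosomes miR-192-5p was listed at 0.5, 0 and 0 counts, miR-194-5p at 1, 0 and 1, miR-215-5p at 0.5, 0 and 0, and miR-192-3p at 0 in all 3, in columns of 6515, 436 and 692 counts. In hepatocyte exosomes the members had 0 counts, except 1 count of miR-192-3p in control, in columns of 335, 91 and 47. A count of 0 allows a share of up to 0.0460%, 0.688% and 0.434% in the serum columns and of up to 0.896%, 3.30% and 6.38% in the hepatocyte exosome columns. A difference between treatments was therefore not detectable at this depth in mature counts of either exosome material, and exchanging the serum columns with the disputed labels leaves that so.

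The control serum column was deep enough to set against control liver. miR-192-5p was at least 25.8-fold lower there, taking the floor of 3 counts, and miR-194-5p was 161-fold lower (28.9 to 6370) on 1 count. By hairpins, mir-192 had 30 counts (0.0166%), mir-215 had 27, and mir-194-1 and mir-194-2 had 16 each. As shares of their columns, mir-192 was 117-fold lower in serum exosomes than in liver (81.7 to 173), mir-215 119-fold (81.5 to 180), mir-194-1 172-fold (106 to 301) and mir-194-2 179-fold (110 to 313). The mir-122 hairpin was 51.6-fold lower (46.4 to 57.6). All 4 hairpins of the group lay further below liver, with intervals that did not overlap its own. They are not 4 separate measurements, because their rows may share reads. How many of all hairpins lay as far below liver is not given here. The mature rows did not separate from miR-122-5p, which was 49.7-fold lower (35.0 to 73.1). That interval overlapped the one of miR-194-5p, and miR-192-5p had only its bound. Each fold compares 2 libraries, and miR-30c-5p together with miR-122-5p, miR-21a-5p and miR-21b made up 57.1% of the mature counts of that serum column.
In hepatocytes against their exosomes the control columns gave at least a 2.72-fold lower share of miR-192-5p in exosomes and at least a 10.9-fold lower share of the mir-215 hairpin. The mir-192 hairpin had 1 count there, a 33.7-fold lower share (6.05 to 1332.5). In the column with G-CSF the hepatocyte share of miR-194-5p, 0.539%, was under the limit that a count of 0 allows in its exosomes, so no fold is given.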

How the data were processed

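Small RNA libraries were made with an Ion Total RNA-Seq kit and run on Ion Torrent PGM and Proton instruments, per the labels. The authors deposited estimated counts (expected counts) per mature miRNA and per hairpin, in 12 columns that combine both libraries of a condition; 32.5% of mature and 46.5% of hairpin values were not whole within 0.001. The aligner, the annotation, the build and the rule for reads matching several miRNAs were not given in the sources used here. Groups follow the treatment label. For the serum columns with acetaminophen, titles and column names give the opposite assignment, and exchanging them was an alternative.

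Counts were rounded for tests. edgeR 4.0.16 (quasi-likelihood, TMM factors) was fitted on the 6 columns of hepatocytes and liver with material and treatment, for miRNAs reaching 10 counts in 2 or more columns, with Benjamini-Hochberg adjustment at 0.05 over all 154. Since no replicates exist, the error behind each p-value is what material and treatment leave unexplained. That error holds differences of a treatment's effect between the materials together with noise between libraries. edgeR estimates it by borrowing across all 154 miRNAs, so a p-value does not measure the spread of its own miRNA alone. The SE given with an edgeR log2 fold is the absolute fold divided by the square root of the test's F statistic. It is not a separately estimated standard error. The planned fit of separate libraries was not possible on combined columns. Within a material, counts were scaled by TMM factors (column totals in exosomes) and their ratio given with an exact conditional Clopper-Pearson 95% interval. Where a count rounded to 0, the fold was given as a bound against 3 counts in that column. Intervals and floors cover counting error only. Alternatives used DESeq2 1.42.0 (size factors or test), column totals, no filter, all 12 columns, the hairpin table, summed rows and each column left out. Leaving the erythroid markers out of liver totals was chosen after seeing the data. So was leaving 4 abundant miRNAs (miR-122-5p, miR-21a-5p, miR-21b and miR-30c-5p) out of the edgeR scaling or of the totals behind shares. Pairing columns by treatment for the ratios within a column was also chosen then.

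Named miRNAs were the members, the other arms of their hairpins, a hepatocyte-enriched and a p53-responsive list, miRNAs with a member's seed, and the 5 nearest in pattern to miR-192-5p and miR-194-5p with a mean of at least 20 counts (pseudocount 0.5). The members and lists were chosen with earlier results of these data known. Sequences and positions are from RefSeq (GRCm38.p6). The fit was also run on simulated counts with large set changes between materials and no treatment effect. That setting is unlike these columns, so the run lends no support to the values given here.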

Additional observations from a re-analysis of the deposited data

Results flagged for a closer look

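The members lay in opposite directions in hepatocytes and in liver in 11 comparisons, each between single columns, and the difference between the materials was not tested. The values are hepatocytes minus liver on the log2 scale after TMM scaling. For acetaminophen against control they were 1.83 for miR-192-5p (1.38 in hepatocytes, -0.45 in liver), 1.61 for miR-215-5p (1.34 and -0.27) and 1.98 for miR-194-5p (0.92 and -1.06). Their hairpins gave 1.24 for mir-192, 1.20 for mir-215, 1.69 for mir-194-1 and 1.71 for mir-194-2. For G-CSF added against acetaminophen alone the hairpins gave -0.89 for mir-192 (-0.74 and 0.15) and -0.89 for mir-215 (-0.76 and 0.13). For both agents against control the values were 1.02 for miR-192-5p (0.62 and -0.40) and 0.90 for miR-215-5p (0.54 and -0.36). Rows of miR-192 and miR-215 may share reads, as may those of the miR-194 hairpins, so these are not 11 separate measurements. The hepatocytes were exposed in culture and the liver in the animal, at doses in different units, and these differences cannot be told apart from the material.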

How the results depend on the processing

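Within hepatocytes and liver, 37 of 42 and 42 of 46 recomputed values of mature members stayed within their counting intervals. Hairpin values were not part of this tally. Summing miR-192-5p and miR-215-5p leaves miR-192-3p and miR-194-5p unchanged by construction, so those values could not move. The intervals of miR-192-3p were wide. The hairpin table changed the number of calls: from 53 to 188, 13 to 51 and 52 to 173 in hepatocytes, 81 to 156, 49 to 119 and 49 to 185 in liver (acetaminophen against control, G-CSF added, both against control), 23 to 107 for both agents against control in serum exosomes, and to 2, 1 and 2 in hepatocyte exosomes. In the edgeR fits, calls between hepatocytes and liver numbered 14, and 24 with library totals, 32 with DESeq2's test, 9 without the filter, 30 for hairpins, 24 without the treatment block and 0 to 35 leaving out a column (35 without control hepatocytes, 33 without control liver, 3 and 4 without a treated hepatocyte column, 0 without a treated liver column). For acetaminophen against control, 1 call became 2 with DESeq2's test, 0 without the filter, 0 on 12 columns and 0 to 19 leaving out a column. For both agents against control, 0 became 1 with DESeq2 size factors, 2 with its test, 1 for hairpins, 1 with summed rows and 0 to 19 leaving out a column; in both, 19 was without control liver.

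Mature member log2 folds that changed sign, listed here, were not called where they did. For the hairpins the report gives those of acetaminophen against control, which were negative for all 4. miR-194-5p between materials was -0.0076 with library totals and -0.015 to 1.27 leaving out a column. For acetaminophen against control, without the filter and on 12 columns, miR-192-5p was -0.18 and -0.014 and miR-194-5p -0.60 and -0.51; miR-215-5p was -0.12 without the filter and miR-194-5p -0.0086 with library totals. Leaving out a column gave -0.22 to 1.27 for miR-192-5p, -1.001 to 0.59 for miR-194-5p, -0.0704 to 1.25 for miR-215-5p and -2.47 to 0.28 for miR-192-3p. For G-CSF added it gave -0.41 to 2.48 for miR-192-3p and -0.93 to 0.15 for miR-192-5p. For both agents against control, miR-192-3p was -0.32 without the filter, -0.45 on 12 columns and -0.55 to 0.15 leaving out a column. There miR-192-5p was 0.0456, 0.0477 and 0.0456 (DESeq2 size factors, library totals and DESeq2's test) and -0.76 to 1.08 leaving out a column, and miR-215-5p 0.0456, 0.0448 and 0.0457, and -0.70 to 0.98. The causes were not tested. The ratio of miR-194-5p to miR-192-5p kept its sign, at -2.32 to -1.26 leaving out a column (exact p = 0.2, the smallest 2 against 3 columns allow). Pairing the columns by treatment, chosen after seeing the data, kept the differences of both ratios (-1.89 and 0.76), with exact p of 0.25 and 0.5. No replicate number links the columns. No column can be left out of a ratio of 2 columns. Depth limits the exosomes and miR-192-3p.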
